A study of Mus musculus with 9 samples.

Results

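The 9 Hedgehog pathway genes Hhip, Ptch1, Smo, Gli1, Gli2, Gli3, Disp1, Disp2 and Sufu were described here in steady-state hepatic stellate cells (HSCs) and in activated fibroblasts from fibrotic mouse livers. The genes were taken by their symbols from the 24453 genes of the deposited table, all 9 were found, and all 9 passed the filter on low reads, which 13651 genes passed in all. The set was chosen by the measured values of these same libraries, among them the level of Hhip in HSCs against fibroblasts. The differences below are therefore a description of the 9 genes. Where a difference of one of them is marked as called, the mark gives its size and spread on the scale used for all genes, and it is no test of a gene chosen by these values.

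Hedgehog ligands bind the receptor Ptch1, which in their absence holds the membrane protein Smo inactive at the primary cilium. Once Smo is freed, the inhibitor Sufu lets go of the Gli transcription factors, of which Gli2 acts mainly as an activator, Gli3 mainly as a repressor, and Gli1 is an activator that the pathway itself switches on. Ptch1 and Hhip, which binds ligands at the cell surface, are also induced by the pathway and restrain it. In the liver, the pathway is known for its activity in stellate cells that turn into myofibroblasts.

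RNA sequencing covered 9 libraries of C57BL/6J mice, 3 per cell group (HSCs, CCl4-fib, NASH-fib), with the cells of 3 to 5 mice combined in each. HSCs were separated by density gradient from healthy livers of untreated wild-type mice. CCl4-fib came from collagen α2(I) promoter–driven GFP transgenic mice (Col1a2-GFP Tg) injected with carbon tetrachloride (CCl4) 2 times per week for 8 weeks. NASH-fib came from male mice with the same transgene that also lacked the melanocortin 4 receptor (MC4R-KO), which had 20 weeks of Western diet (WD) starting at 8 weeks of age. Both kinds of fibroblast were sorted as CD45- GFP+ cells, so the gate held any cell outside the blood lineage in which the Col1a2 promoter was active. HSCs carried neither the transgene nor the receptor deletion and were not sorted, and genotype, diet and method of isolation cannot be told apart from the cell state in the comparisons with HSCs. Between the fibroblasts, the receptor deletion, diet, CCl4 and length of treatment differed together and cannot be told apart either. The sex and age of the mice behind HSCs and CCl4-fib are not given. Differences in these therefore cannot be told apart from the groups. It is not stated whether the pools of 1 group came from separate experiments. The sample descriptions open with number pairs that differ within a group, except for NASH-fib replicates 2 and 3, but their meaning is not given. The spread between libraries may thus be partly technical.

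The libraries held between 3071070 and 5634273 reads on genes, with a median of 3740541 in the HSC libraries, 5258041 in CCl4-fib and 4550212 in NASH-fib. The values given here are read counts scaled to 1 common total, called normalised values, and 3 reads correspond to a value between 2.38 and 4.37. The sum over 13 markers of quiescent stellate cells ran from 44912 to 54928 in HSCs, from 4377 to 7403 in CCl4-fib and from 3035 to 4517 in NASH-fib. The sum over 10 markers of activated fibroblasts ran the other way, with 6964 to 12297 in HSCs against 52918 to 60355 in CCl4-fib and 34928 to 39952 in NASH-fib. Single markers went against these sums, with Postn called lower and Plin4, of the quiescent list, called higher in NASH-fib than in HSCs. Postn had values of 5022, 5577 and 2971 in the HSC libraries and at most 2353 in the fibroblasts, and without it the activated sum was 3993 to 6720 in HSCs and at least 33818 in the fibroblasts. Transcripts of other liver cells moved with the groups as well. Of 14 hepatocyte markers, the summed value was 33918 to 66842 in the HSC libraries, 3195 to 5056 in CCl4-fib and 11535 to 40647 in NASH-fib, and that of 10 sinusoidal endothelial markers was 13180 to 20974, 276 to 369 and 1336 to 4763. Of 10 macrophage markers it was 4988 to 17681, 456 to 930 and 3005 to 6491, with Marco at or under 3 reads in every CCl4-fib library, and of 6 lymphocyte markers 109 to 329, 15.9 to 36.3 and 107 to 551, with Cd3e, Cd3g and Nkg7 likewise at or under 3 reads in CCl4-fib. The sums over 7 portal fibroblast, 5 mesothelial, 7 smooth muscle and 6 cholangiocyte markers were at most 446, 945, 378 and 226 in HSCs and at least 2829, 15517, 3305 and 3488 in the fibroblast libraries, with Epcam, Cnn1, Lmod1, Casq2 and Olfr558 at or under 3 reads in every HSC library. In bulk libraries, fewer cells of a type and less RNA per cell cannot be told apart, and the part of these other cells in the levels below was not tested.

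A difference was called at an adjusted p under 0.05 and a log2 fold change of 1 or more in either direction, from limma on log2(value + 1) over all genes that passed the filter. In NASH-fib against HSCs, 2 of the 9 genes were called higher (Smo and Gli2) and 2 lower (Hhip and Disp2), where 8.23% of all tested genes were called higher and 4.3% lower. In CCl4-fib against HSCs, 3 were called higher (Smo, Gli2 and Disp1) and 3 lower (Hhip, Disp2 and Ptch1), beside 16.2% and 11.7% of all tested genes. In NASH-fib against CCl4-fib, Ptch1 was called higher and Disp1 lower, beside 4.97% and 5.66%. As the values of these comparisons chose the genes, nothing is read from these counts. The median log2 fold change of the 9 genes was 0.30, 0.63 and 0.38 in these comparisons, in the order given, against −0.02, 0.18 and −0.11 over all tested genes. Scaled by TMM in edgeR, the median of all tested genes in NASH-fib against CCl4-fib was 0.14, and 58.8% in place of 46.7% of all calls were on the higher side (56.7% with DESeq2). The direction of each called gene of the 9 was the same under every scaling.

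The promoters of Hhip and Smo are shown because these genes gave the widest fall and the highest fibroblast level of the set. Hhip (NM_020259) lies on the minus strand of mm10 at chr8:79965851-80058008 and Smo (NM_176996) on the plus strand at chr6:29735497-29761366. The sequences are the 250 bases before the start of each gene, from RefSeq on GRCm38.p6, at chr8:80058009-80058258 and chr6:29735247-29735496, 5′ to 3′ on the strand of the gene, and capitals mark CG dinucleotides. All gene positions here are on mm10.
Hhip: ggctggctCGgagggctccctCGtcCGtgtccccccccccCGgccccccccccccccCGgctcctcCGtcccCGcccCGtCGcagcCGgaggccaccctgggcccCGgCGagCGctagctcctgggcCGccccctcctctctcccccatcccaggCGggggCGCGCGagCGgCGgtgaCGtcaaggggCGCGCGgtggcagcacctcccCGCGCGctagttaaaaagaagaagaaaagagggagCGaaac
Smo: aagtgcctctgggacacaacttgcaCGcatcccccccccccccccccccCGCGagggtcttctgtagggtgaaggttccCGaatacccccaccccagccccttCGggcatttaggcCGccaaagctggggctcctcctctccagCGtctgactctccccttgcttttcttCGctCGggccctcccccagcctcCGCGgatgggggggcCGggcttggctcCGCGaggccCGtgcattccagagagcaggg
The Hhip window held 28 CG dinucleotides at 76% GC and the Smo window 15 at 68.4% GC, where the median promoter of the 32851 in the table held 6 at 52.4% GC. More CG dinucleotides than in 92.4% of all promoters were thus counted for Hhip, and than in 72.7% for Smo. The table had windows for 7 of the 9 genes, 8 in all, and 0 of them held the Gli binding motif TGGGTGGTC on either strand. The same letters were found in 0.225% of all promoters, and their absence from these windows says nothing of Gli binding elsewhere.

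Hhip, the decoy receptor that takes up Hedgehog ligands, had the highest level of the set in HSCs and nearly no reads in fibroblasts. Its normalised values were 1851, 2276 and 1840 in the HSC libraries, against 0, 0.85 and 0 in CCl4-fib and against 8.16, 38.3 and 0 in NASH-fib. In reads, this was 1583, 1563 and 1539 against 0, 1 and 0 and against 6, 43 and 0. The groups did not overlap between HSCs and fibroblasts, while NASH-fib replicate 3 had no read and so lay within the range of CCl4-fib. Against HSCs, the level in CCl4-fib was at least 765-fold lower, taking 3 reads per library as the floor, and that in NASH-fib was 128-fold lower by the means of 1989 ± 249 and 15.5 ± 20.2 (SD, n = 3). The log2 fold change in NASH-fib was −8.12 ± 1.06 (SE), and −6.71 without NASH-fib replicate 3 and −9.35 without replicate 2. Between the fibroblasts, the log2 fold change of 2.53 was not called. Leaving out NASH-fib replicate 3 moved it to 3.95, edgeR gave 5.34 and DESeq2 5.74, and in each of these it was called. Without NASH-fib replicate 2 it was 1.30 and not called. A misc_RNA, Gm27820, overlaps 175 exonic bases of Hhip on the opposite strand, and reads of both strands were counted.

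The 2 Dispatched genes went opposite ways in CCl4-fib. Disp1 (NM_001278220, minus strand, chr1:183086264-183147557), which releases lipid-modified ligand from the cells that make it, had values of 17.5, 27.7 and 29.9 in the HSC libraries, against 208, 199 and 179 in CCl4-fib and against 12.2, 51.7 and 72.7 in NASH-fib. All CCl4-fib libraries lay above all others, and the NASH-fib libraries spread over and beyond the range of HSCs, with replicate 1 lowest. The mean was 7.81-fold higher in CCl4-fib than in HSCs (log2 fold change 2.95 ± 0.61) and 4.29-fold lower in NASH-fib than in CCl4-fib (−2.40 ± 0.61). The second of these calls was lost when replicate 1, 2 or 3 of CCl4-fib was left out, with log2 fold changes of −2.35, −2.38 and −2.46, and likewise without replicate 1 or 3 of NASH-fib, with −1.65 and −2.89.

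Disp2 (NM_170593, plus strand, chr2:118779719-118795175), a relative of Disp1 whose role in ligand release is less well defined, had values of 1140, 549 and 781 in the HSC libraries, against 0, 2.55 and 0.95 in CCl4-fib and against 4.08, 10.7 and 1.97 in NASH-fib. It thus followed the order of Hhip, with no overlap between HSCs and fibroblasts. Its level was at least 317-fold lower in CCl4-fib than in HSCs, and 148-fold lower in NASH-fib by the means of 823 ± 298 and 5.58 ± 4.55. Per kilobase of exon, HSCs held 46.9, 14.3 and 18.8 times as much Disp2 as Disp1. In the NASH-fib libraries the balance was turned, with 4.16, 6.70 and 51.2 times as much Disp1 as Disp2, and in CCl4-fib replicates 2 and 3 it was 108 and 262 times, on 3 and 1 reads of Disp2. CCl4-fib replicate 1 had no read of Disp2.

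Ptch1, the receptor (NM_008957, minus strand, chr13:63511533-63565520), separated CCl4-fib from the others. Its values were 28.1, 17.5 and 43.0 in the HSC libraries, against 3.97, 2.55 and 6.68 in CCl4-fib and against 27.2, 42.8 and 34.4 in NASH-fib. Every CCl4-fib library was below every other library, on 5, 3 and 7 reads, and HSCs and NASH-fib overlapped. The mean in CCl4-fib was 6.71-fold lower than in HSCs (log2 fold change −2.48 ± 0.57), and the mean in NASH-fib was 7.90-fold higher than in CCl4-fib (2.78 ± 0.57). Against HSCs, the log2 fold change in NASH-fib was 0.30 ± 0.57. The call between the fibroblasts was lost without replicates 1 or 2 of CCl4-fib, at log2 fold changes of 2.75 and 2.51, and without NASH-fib replicate 3, at 2.77.

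Smo, which carries the signal inward once Ptch1 lets go of it, was higher in every fibroblast library than in any HSC library. Its values were 44.4, 56.8 and 75.3 in the HSC libraries, against 262, 314 and 251 in CCl4-fib and against 243, 191 and 164 in NASH-fib. The means of 58.8 ± 15.6, 276 ± 33.6 and 199 ± 40.3 were 4.68-fold higher in CCl4-fib (log2 fold change 2.23 ± 0.36) and 3.39-fold higher in NASH-fib (1.76 ± 0.36) than in HSCs. The NASH-fib libraries all lay below the CCl4-fib libraries, with a log2 fold change of −0.48 ± 0.36 that was not called. Per kilobase, Smo over Ptch1 was 1.71, 3.51 and 1.89 in the HSC libraries, against 71.3, 133 and 40.6 in CCl4-fib and against 9.67, 4.82 and 5.15 in NASH-fib, so that the 3 groups did not overlap in this ratio. The exonic lengths behind it are those of the deposited table, with 4281 bases for Ptch1, where all its exons in GENCODE M21 cover 14185. Another gene model would change the lengths and could also change the reads counted, which was not tested. In CCl4-fib the ratio rests on 5, 3 and 7 reads of Ptch1.

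**Figure D1:**
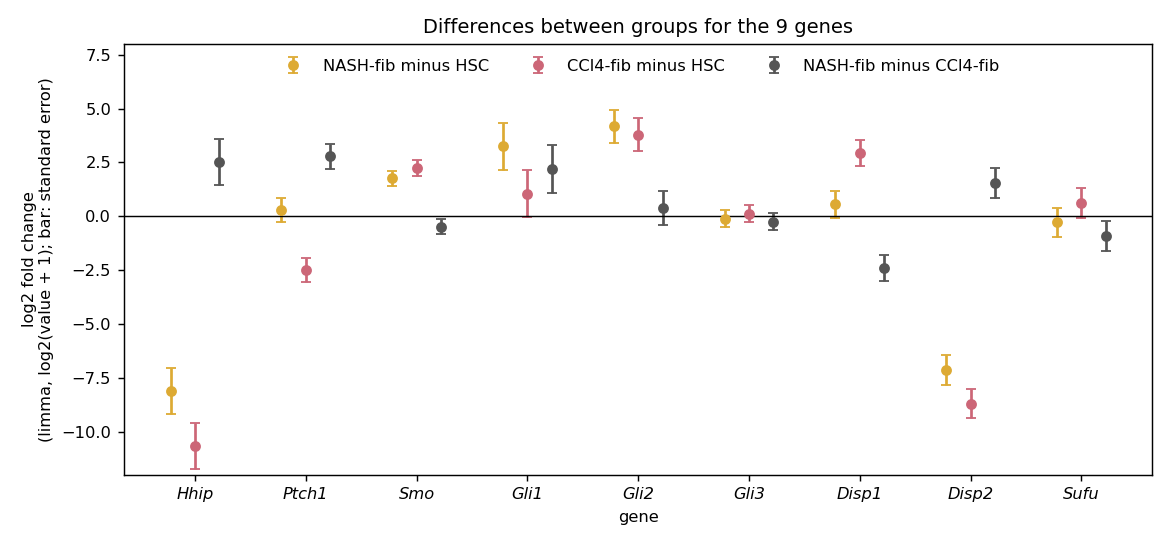
Log2 fold change of each gene on the log2(value + 1) scale from limma, with bars for the standard error, for NASH-fib minus HSC, CCl4-fib minus HSC and NASH-fib minus CCl4-fib. Hhip and Disp2 lie far under 0 in both comparisons with HSCs, Smo and Gli2 lie over 0 in both, and Ptch1 and Disp1 lie on opposite sides of 0 in the comparison of the fibroblasts.

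Among the transcription factors, Gli1 and Gli2 were low in HSCs and Gli3 was not. Gli2 (NM_001081125, minus strand, chr1:118834061-119053619) had values of 5.84, 0 and 0 in the HSC libraries, against 19.8, 30.6 and 26.7 in CCl4-fib and against 27.2, 34.7 and 39.3 in NASH-fib. The HSC level rested on 5 reads, all in replicate 1, and both kinds of fibroblast lay above it in every library. The log2 fold change was 3.79 ± 0.78 in CCl4-fib and 4.18 ± 0.78 in NASH-fib, and 4.72 and 5.10 without HSC replicate 1. With a pseudocount of 10 in place of 1 these were 1.60 and 1.90, since the values of the gene are of that order.

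Gli1 (NM_010296, minus strand, chr10:127329882-127341579) had values of 2.34, 1.46 and 4.78 in the HSC libraries, against 26.2, 14.5 and 0 in CCl4-fib and against 19.0, 51.7 and 37.4 in NASH-fib. All NASH-fib libraries lay above all HSC libraries, while CCl4-fib ranged from no read in replicate 3 to 33 reads in replicate 1 and overlapped both. In NASH-fib against HSCs the log2 fold change was 3.24 ± 1.10 and was not called. It was called by DESeq2, with a pseudocount of 10, when fitted on the 2 groups alone, and without CCl4-fib replicate 3. In CCl4-fib against HSCs the log2 fold change was 1.05 ± 1.10, and 2.50 and called without CCl4-fib replicate 3. In NASH-fib against CCl4-fib it was 2.20 ± 1.10, 0.74 without that library and 3.13 without CCl4-fib replicate 1. Gli1 shares 62 exonic bases with Arhgap9 on the opposite strand and 265 with the antisense gene Gm47200, and reads of these genes cannot be told apart there.

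Gli3 (NM_008130, plus strand, chr13:15463723-15730025) had values of 206, 181 and 178 in the HSC libraries, against 155, 236 and 236 in CCl4-fib and against 280, 144 and 129 in NASH-fib. The groups overlapped, and the log2 fold changes of −0.11, 0.13 and −0.24, each ± 0.39, were under their standard error. Exons of Gli3 overlap Gm6556 on the opposite strand over 188 bases. Per kilobase, Gli1 over Gli3 was at most 0.0619 in the HSC libraries, against 0.390, 0.141 and 0 in CCl4-fib and against 0.157, 0.826 and 0.669 in NASH-fib. Sufu, the inhibitor that holds Gli proteins in the cytoplasm (NM_001025391, plus strand, chr19:46396896-46488804), also overlapped in all groups, at 99.4, 26.2 and 55.0 in the HSC libraries, against 42.9, 158 and 80.1 in CCl4-fib and against 21.8, 84.6 and 42.3 in NASH-fib. Its standard error of 0.69 exceeded 2 of its 3 log2 fold changes, −0.29 in NASH-fib and 0.63 in CCl4-fib against HSCs, and between the fibroblasts the log2 fold change was −0.92.

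Levels per kilobase of exon set the order of the genes within a group. In HSCs the order was Hhip (219 ± 27.4 per kb), Disp2 (124 ± 45.0), Gli3 (22.4 ± 1.82), Smo (14.8 ± 3.92), Sufu (13.4 ± 8.17), Ptch1 (6.90 ± 3.00), Disp1 (5.24 ± 1.38), Gli1 (0.784 ± 0.472) and Gli2 (0.291 ± 0.504). The ranges of neighbours overlapped from Smo to Disp1 and between Gli1 and Gli2, and the other neighbours were apart. Hhip in HSCs was above 86.4% of all tested genes by level per kb, and Disp2 above 78.3%. In CCl4-fib the order opened with Smo (69.5 ± 8.48), Disp1 (40.9 ± 3.06), Gli3 (24.8 ± 5.58) and Sufu (20.8 ± 13.1), of which only Gli3 and Sufu overlapped. Gli2 (3.84 ± 0.815), Gli1 (3.72 ± 3.60) and Ptch1 (1.03 ± 0.490) followed, each overlapping the next, and Disp2 and Hhip were last at 0.176 and 0.0313, overlapping each other and apart from Ptch1. In NASH-fib Smo (50.3 ± 10.2) stood apart from Gli3 (21.9 ± 9.90), and Gli3, Sufu (11.0 ± 7.11), Gli1 (9.87 ± 4.48), Disp1 (9.54 ± 6.43) and Ptch1 (8.12 ± 1.82) each overlapped the next. Gli2 (5.04 ± 0.915), Hhip (1.71 ± 2.23) and Disp2 (0.843 ± 0.687) came last, with Gli2 apart from Ptch1.

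As shares of the summed level per kb, Hhip made up 45.8 to 65.1% and Disp2 21.5 to 38.6% of the 9 genes in HSCs. In the fibroblasts Smo had the largest share, with 40.9 to 44.5% in CCl4-fib and 37.0 to 51.5% in NASH-fib. The sum itself ran from 386 to 446 per kb in HSCs, from 149 to 194 in CCl4-fib and from 106 to 130 in NASH-fib. The shares in CCl4-fib and NASH-fib did not overlap for Disp1 (21.5 to 29.3% against 2.15 to 14.4%), Ptch1 (0.308 to 1.02% against 5.33 to 7.68%), Gli2 (1.99 to 2.62% against 3.41 to 5.55%) and Disp2 (0 to 0.199% against 0.281 to 1.24%). The shares of the other 5 genes overlapped. A share also moves with the sum, and the sums of the fibroblast groups were themselves apart. By value, Disp1 and Ptch1 were apart as well, while Gli2 and Disp2 overlapped and were not called (log2 fold changes 0.38 and 1.56). Their shares therefore do not separate the fibroblasts by level. For Disp2 the shares rest on 0, 3 and 1 reads (CCl4-fib) against 3, 12 and 2 (NASH-fib).

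**Figure D2:**
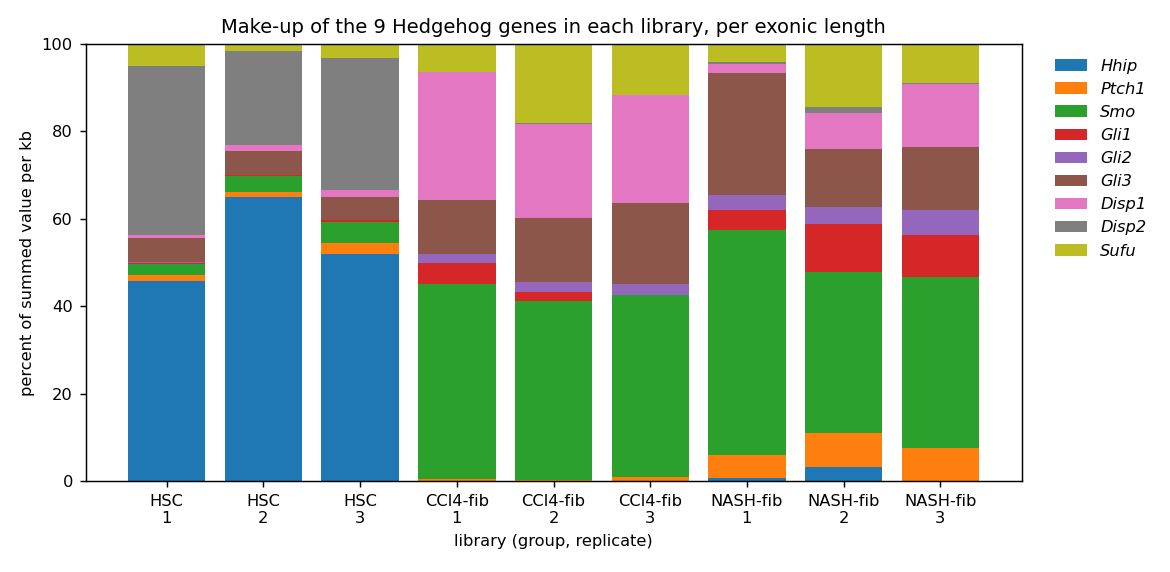
Share of each of the 9 genes, in percent, of their summed value per kb of exon in every library (group and replicate on the horizontal axis). Hhip and Disp2 fill most of the HSC bars, Smo is the largest block in all fibroblast bars, and Disp1 is wider in CCl4-fib than in NASH-fib.

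The descriptions of the samples open with number pairs that are shared across groups, and libraries with the same pair were set side by side. HSC replicate 2, CCl4-fib replicate 1 and NASH-fib replicate 1 share a pair, as do HSC replicate 3 and CCl4-fib replicate 2, and CCl4-fib replicate 3 and NASH-fib replicates 2 and 3. On the log2(value + 1) scale, NASH-fib minus HSC within the only shared pair was −7.96 for Hhip, −6.76 for Disp2, 2.08 for Smo and 4.82 for Gli2. CCl4-fib minus HSC was −11.15 and −9.96 for Hhip, −9.10 and −7.78 for Disp2, −1.89 and −3.63 for Ptch1, 2.19 and 2.04 for Smo, 4.38 and 4.98 for Gli2, and 2.87 and 2.69 for Disp1. NASH-fib minus CCl4-fib was 2.50 and 2.36 for Ptch1 and −3.98 and −1.53 for Disp1. For Gli1 it was −0.44 and 5.49. These libraries are among those that chose the genes. With the pair as a term in the fit, Smo in NASH-fib against HSCs and Ptch1 and Disp1 between the fibroblasts were not called, at log2 fold changes of 1.88, 2.63 and −2.64 in place of 1.76, 2.78 and −2.40. HSC replicate 1 shares its pair with no other library, so the term sets it aside. The term also leaves less data to estimate the spread, and whether lost power or the labels removed these calls was not tested.

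The genes most like each member over the 9 libraries were found by the root mean square difference of log2(value + 1), each gene centred on its own mean. Nearest to Hhip were Disp2 (1.21), Lrrn3 (1.75), Aard (1.83), Egfem1 (1.94) and 1700063D05Rik (1.96). Their mean values in HSCs were 823, 1290, 290, 245 and 149, and in CCl4-fib none was over 5.38. Nearest to Disp2 were 1700063D05Rik (1.01) and Egfem1 (1.05). Smo lay nearest to Tubb2a (0.28) and Dpysl3 (0.30), Ptch1 to Evi2a (0.52) and Ms4a4c (0.54), and Disp1 to Dhrs4 (0.34) and Slc5a2 (0.37). Gli1 lay nearest to Scn4b (0.67) and Ly6c2 (0.68), Gli2 to Has1 and Gipc2 (both 0.49), Gli3 to Msh6 and Zfp622 (both 0.18), and Sufu to Josd1 and Cic (both 0.34).

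The rest of the pathway was read from a list of 95 further genes, ordered by role, of which 88 were tested. In NASH-fib against HSCs, 14 (15.9%) were called higher and 3 (3.41%) lower, beside 8.23% and 4.3% of all tested genes, with a median log2 fold change of 0.02 against −0.02 over all tested genes. In CCl4-fib against HSCs, 17 (19.3%) were called higher and 6 (6.82%) lower, beside 16.2% and 11.7%, with a median of 0.49 against 0.18. In NASH-fib against CCl4-fib 1 (1.14%) was called higher and 1 lower, beside 4.97% and 5.66%, with a median of −0.02 against −0.11. In that last comparison, 9 and 13 genes had an unadjusted p under 0.05, and edgeR called 2 higher and DESeq2 6 higher and 3 lower. Of the 42 calls, 20 were kept in every alternative fit. With the label pair as a term, the calls in NASH-fib against HSCs that remained were those of Cdon, Gas1, Gpc3, Lrp2, Sfrp1, Spp1 and Sox9, and the calls in CCl4-fib that were lost were those of Scube2, Wdr35, Dync2h1, Ift20, Ift27, Ift122, Arl13b and Ccnd2. Between the fibroblasts, Lrp2 was lost and Ift20 kept. A few of these genes, such as Spp1 and Sox9, were also on the marker lists of activated fibroblasts or cholangiocytes above.

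Of the ligands, Dhh was read in HSCs, and in every fibroblast library it had no read. Its values were 11.7, 35.0 and 15.5 in HSCs, from 10, 24 and 13 reads. This put CCl4-fib at least 7.98-fold and NASH-fib at least 6.41-fold lower against the floor of 3 reads. Dhh was called lower in both, but it passed the filter on low reads only through the HSC libraries. Its calls are therefore description and no test. Exons of Dhh overlap those of Rhebl1 on the same strand over 546 bases and of the antisense gene Gm49442 over 1107 bases. Shh had no read in any library, and Ihh had 2 reads in NASH-fib replicate 1 and none elsewhere, which at this depth leaves levels under the value of 3 reads undetected. Hhat, the enzyme that attaches palmitate to the ligands, had means of 47.8 ± 27.7 in the HSC libraries, 70.4 ± 5.79 in CCl4-fib and 31.4 ± 20.1 in NASH-fib and was not called.

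Of the Scube genes, whose secreted products help to release ligand, Scube2 had no read in HSCs while its values were 20.6, 5.95 and 15.3 in CCl4-fib and, in NASH-fib, 2.72, 11.6 and 11.8. It was called higher in both, at least 3.65-fold in CCl4-fib and 2.28-fold in NASH-fib against the floor. As Scube2 passed the filter on low reads only through the fibroblast libraries, these calls are description and no test. The call in NASH-fib was lost without any 1 of the HSC libraries and without NASH-fib replicate 2 or 3, at log2 fold changes of 2.77 to 3.08, and with a pseudocount of 10, at 0.86. Scube1 was not called, with means of 26.8 ± 12.2, 49.5 ± 31.3 and 33.7 ± 25.5 in HSCs, CCl4-fib and NASH-fib. Scube3 had at most 4 reads in any library and was not tested.

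Of 6 tested coreceptors and other ligand-binding genes, 5 (83.3%) were called higher in NASH-fib and in CCl4-fib than in HSCs. Of all tested genes, 8.23% and 16.2% were called higher in these comparisons. The 5 genes were Cdon, Boc, Gas1, Gpc3 and Lrp2, and the other gene was not called in either direction. Cdon, a coreceptor that helps Ptch1 to bind ligand, had values of 76.0, 78.6 and 49.0 in the HSC libraries, against 378, 420 and 292 in CCl4-fib and against 544, 543 and 500 in NASH-fib. It was 5.35-fold higher in CCl4-fib and 7.79-fold higher in NASH-fib by the means (limma, adjusted p = 0.000539 and 0.000251), with no overlap with HSCs. Its relative Boc rose from 0, 10.2 and 15.5 in HSCs to 210, 140 and 119 in CCl4-fib and to 44.9, 119 and 107 in NASH-fib (log2 fold changes 4.75 and 3.88, SE 0.93, limma adjusted p = 0.00365 and 0.0185). For Boc, the log2 fold change in NASH-fib fell to 2.63 without HSC replicate 1, and the call was lost without NASH-fib replicate 2 (3.63) or 3 (3.70) and when fitted on the 2 groups alone. In CCl4-fib it was 3.49 without HSC replicate 1.

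Gas1, the third coreceptor, which is anchored to the membrane by a lipid, had means of 495 ± 196 in the HSC libraries, 2343 ± 51.1 in CCl4-fib and 2815 ± 1439 in NASH-fib, of which NASH-fib replicate 1 was highest at 4475. It was called higher in both comparisons with HSCs (limma, adjusted p = 0.00223 and 0.00262). Gpc3, a glypican that competes with Ptch1 for ligand, rose from 357, 379 and 181 in HSCs to 2387, 2124 and 1556 in CCl4-fib and to 4093, 3495 and 3491 in NASH-fib (log2 fold changes 2.77 and 3.66, SE 0.36, limma adjusted p = 0.000353 and 0.000109). Lrp2, a large endocytic receptor that takes up ligand, had values of 32.7, 11.7 and 17.9 in the HSC libraries, against 202, 269 and 227 in CCl4-fib and against 784, 517 and 704 in NASH-fib. It was 11.2-fold and 32.2-fold higher than in HSCs (limma, adjusted p = 0.000214 and 4.51e-05), with the 3 groups apart from each other.

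Between the fibroblasts, Lrp2 was 2.87-fold higher in NASH-fib (limma, log2 fold change 1.51, adjusted p = 0.0471). That call was lost in 7 of the 9 fits with a library left out, all but those without HSC replicates 1 or 2, at log2 fold changes of 1.38 to 1.68, and also with a pseudocount of 0.5 and without the filter on low reads. The calls of Cdon, Gas1, Gpc3 and Lrp2 against HSCs were kept in every alternative.

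**Figure D3:**
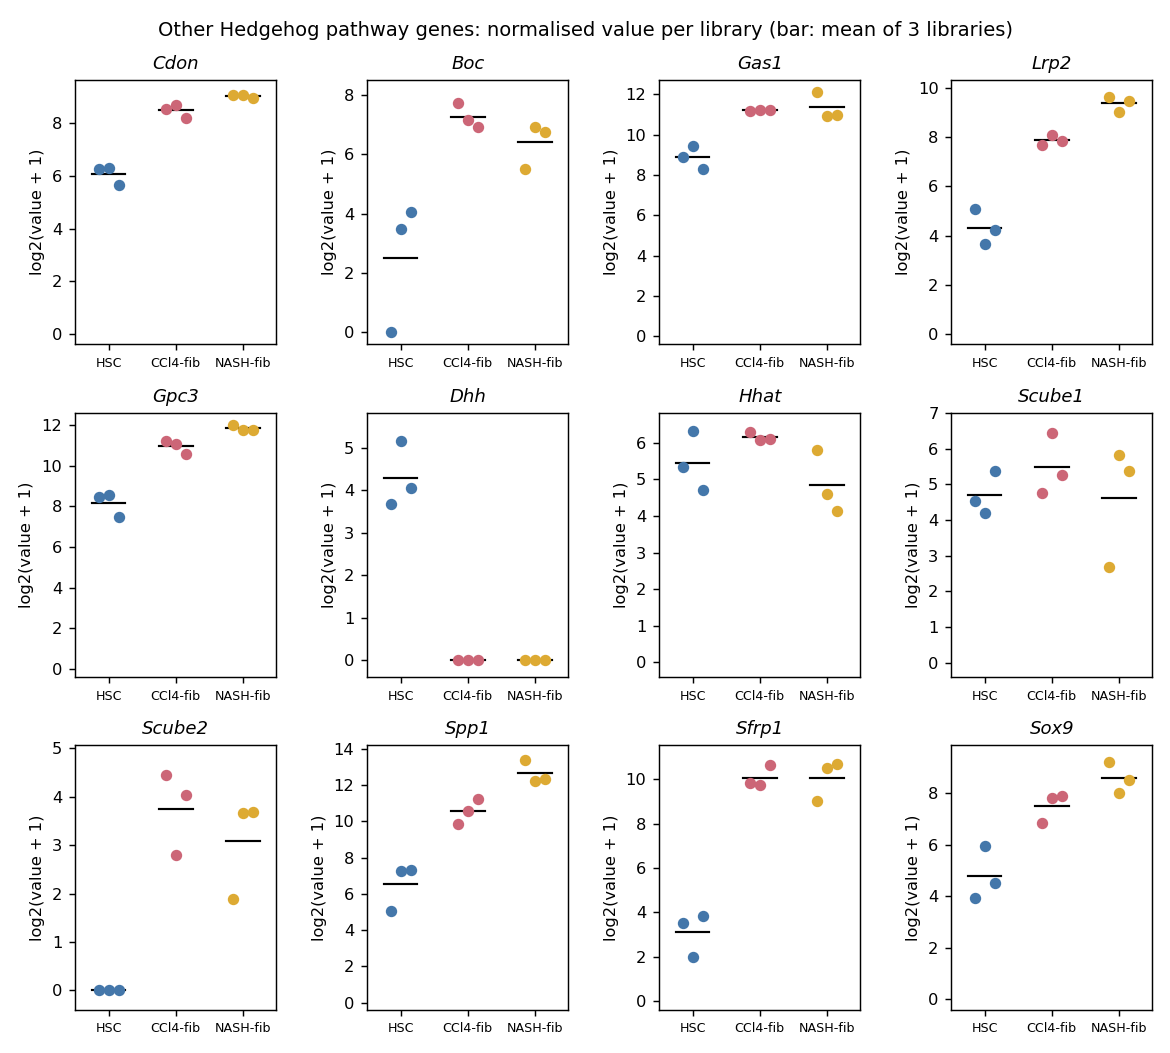
Normalised value as log2(value + 1) on the vertical axis for 12 other genes of the pathway, with 1 point per library and a bar at the mean of the 3 libraries of each group. Cdon, Boc, Gas1, Lrp2 and Gpc3 are above HSCs in every fibroblast library, Dhh is read only in HSCs, and Scube2 only in the fibroblasts.

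Of 31 tested genes that act on Smo or the Gli proteins, 0 passed as higher and 2 (6.45%) as lower in NASH-fib against HSCs, where 8.23% and 4.3% of all tested genes did. In CCl4-fib, 1 (3.23%) was higher and 2 lower, beside 16.2% and 11.7%. Arrb2, an arrestin that binds active Smo, fell from 156 ± 10.3 in HSCs to 25.0 ± 2.52 in CCl4-fib and 28.6 ± 4.74 in NASH-fib (limma, adjusted p = 0.000936 and 0.00225). Numb, which directs Gli1 to degradation, fell from 590 ± 65.6 to 203 ± 34.5 and 188 ± 11.1 (limma, adjusted p = 0.00395 and 0.00477). Stk36, a kinase related to the fly protein Fused, was called higher in CCl4-fib, at 44.5, 17.9 and 14.3 against 5.84, 0 and 2.39 in HSCs (limma, log2 fold change 3.05, adjusted p = 0.0193), and the call was lost without HSC replicate 2 (2.29) or CCl4-fib replicate 1 (2.58).

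The list of the primary cilium and its transport, where the signal is passed on, had 33 tested genes. In NASH-fib against HSCs, 4 (12.1%) were called higher and 0 lower, beside 8.23% and 4.3% of all tested genes, and in CCl4-fib 7 (21.2%) higher and 1 (3.03%) lower, beside 16.2% and 11.7%. Nothing is read from shares this near to those of all genes. Wdr35, a subunit of the retrograde transport complex, rose from 108 ± 35.5 to 409 ± 93.7 in NASH-fib (limma, adjusted p = 0.00584) and to 243 ± 18.4 in CCl4-fib (0.0337). Ift140, of the same complex, rose from 5.84, 5.82 and 7.17 in HSCs to 129, 49.3 and 35.3 in CCl4-fib (limma, log2 fold change 3.10, adjusted p = 0.00406). In CCl4-fib, Dync2li1, Dync2h1, Ift27, Ift122 and Ift20 were also called higher (log2 fold changes 2.62, 1.16, 2.52, 1.88 and 1.63) and Arl13b, a ciliary GTPase, lower (−1.24). In NASH-fib, Ift140, Dync2li1 and Dync2h1 were called higher with limma adjusted p of 0.0444, 0.0453 and 0.0443. These 3 calls in NASH-fib were lost with most single libraries left out, at log2 fold changes of 1.77 to 2.24, 1.71 to 2.27 and 1.13 to 1.47. In CCl4-fib, Dync2h1, Wdr35, Ift122 and Ift27 lost their calls in several of these fits, at log2 fold changes of 0.92 to 1.19, 0.92 to 1.26, 1.57 to 2.07 and 1.75 to 2.61. In edgeR, Wdr35 (1.06), Ift27 (1.96) and Dync2h1 (0.98) were not called in CCl4-fib. Ift20 lost its call without HSC replicate 1 (1.44). With single libraries left out, Arl13b kept its call only without HSC replicate 3 or NASH-fib replicate 1. It was lost, for example, at −1.43 without CCl4-fib replicate 3.

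Ift20 was the only gene of the list called lower in NASH-fib than in CCl4-fib. Its values were 159, 188 and 299 in the HSC libraries, against 657, 603 and 675 in CCl4-fib and against 93.8, 231 and 167 in NASH-fib. The CCl4-fib libraries lay above all others, and NASH-fib was 3.94-fold lower by the means (limma, log2 fold change −2.06, adjusted p = 0.0158). Replicates 1 (−2.05) and 2 (−2.11) of CCl4-fib and replicate 3 of NASH-fib (−2.12) were each needed for the call.

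Of 19 genes reported as targets of Gli proteins in other tissues, 15 were tested. NASH-fib had 4 of them (26.7%) higher and 0 lower than HSCs, beside 8.23% and 4.3% of all tested genes. CCl4-fib had 3 (20%) higher and 2 (13.3%) lower, near the 16.2% and 11.7% of all tested genes. The median log2 fold change of the 15 genes against HSCs was −0.46 in NASH-fib and 0.28 in CCl4-fib. Over all tested genes it was −0.02 and 0.18. In NASH-fib, the median of the reported targets thus lay below that of all tested genes, while their share called higher lay above it. The list as a whole was not tested. Sfrp1, a secreted Wnt antagonist, rose from 8.86 ± 5.32 in HSCs to 1122 ± 404 in CCl4-fib and 1215 ± 616 in NASH-fib (limma, log2 fold change 6.97 in both, adjusted p = 3.81e-05 and 4.85e-05). Spp1, which encodes osteopontin, rose from 116 ± 72.0 to 1629 ± 747 and 6944 ± 3285 (limma, log2 fold changes 4.00 and 6.10, adjusted p = 0.00107 and 0.000143), or 3.26 and 5.36 without HSC replicate 1. Sox9, a transcription factor of cholangiocytes and of activated stellate cells, rose from 31.8 ± 24.5 to 190 ± 66.7 and 398 ± 165 (limma, adjusted p = 0.00532 and 0.00138). Both genes are on the cholangiocyte list and make up much of its sum. The other 4 genes of that list, Krt19, Krt7, Epcam and Cftr, summed to 10.2 to 38.3 in HSCs, 1136 to 3032 in CCl4-fib and 546 to 987 in NASH-fib.

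Bmp4, a ligand of the BMP family, was called higher in NASH-fib, at 393 ± 55.1 against 119 ± 34.6 in HSCs (limma, adjusted p = 0.0113), and had 203 ± 60.8 in CCl4-fib. The mesenchymal transcription factor Foxf1 was called lower in CCl4-fib, at 437, 358 and 285 against 1143, 2142 and 687 in HSCs (limma, log2 fold change −1.74, adjusted p = 0.0182). Its call was lost without HSC replicate 2 (−1.32), CCl4-fib replicate 2 (−1.75) or CCl4-fib replicate 3 (−1.59). Ccnd2, a cyclin of the G1 phase, was called lower in CCl4-fib, at 1063 ± 332 against 3548 ± 1569 in HSCs (limma, adjusted p = 0.00796). Foxf2, Foxl1, Jag2 and Prdm1 had at most 10 reads in any library and were not tested, and the other reported targets were not called. Exons of Gas1, Spp1, Bmp4, Numb, Ccnd2, Foxf1 and Arrb2 overlap those of other annotated genes over 64 to 589 bases, and reads there cannot be told apart.

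**Figure D4:**
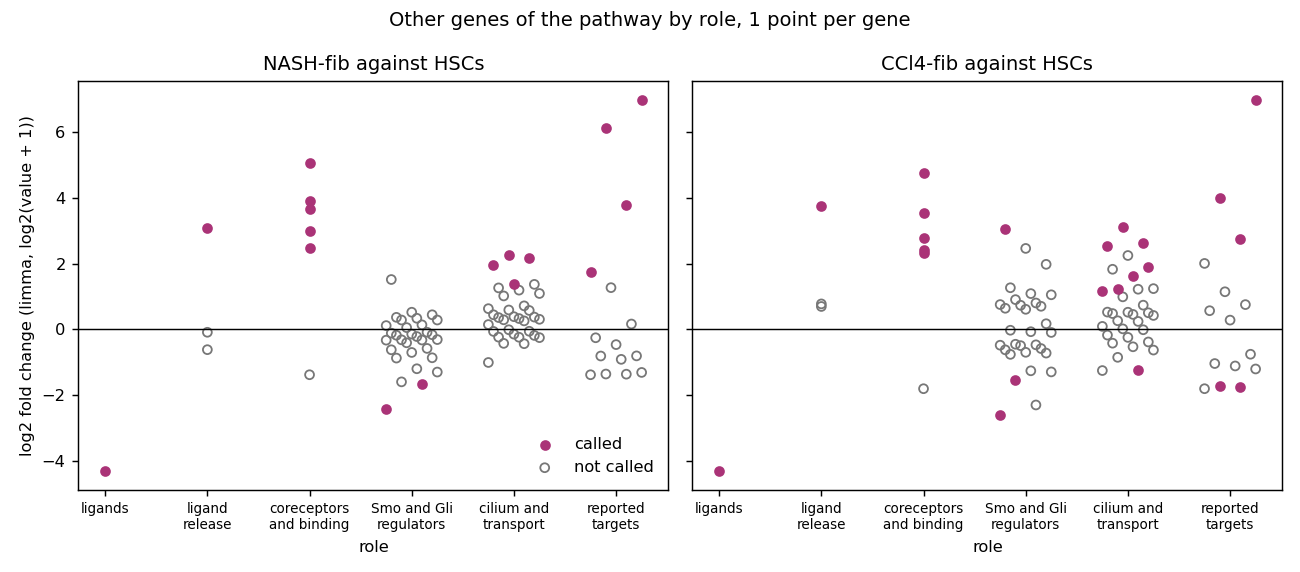
Log2 fold change from limma on the log2(value + 1) scale for the other genes of the pathway, with 1 point per tested gene, grouped by role on the horizontal axis, for NASH-fib against HSCs and CCl4-fib against HSCs. Filled points are called, and 5 of 6 coreceptors and binding genes are called higher in both panels. Most Smo and Gli regulators and cilium genes are open points near 0.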

How the data were processed

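The deposited file holds a signal per gene and library, made by the authors from SMARTer-amplified reads aligned to mm10 with STAR and counted on RefSeq exons with HOMER, on either strand and with at most 3 reads per position, and scaled to 1 total per library. Each value divided by the value of 1 read was whole (100% of values, within 0.006), so reads were recovered. Genes were kept by filterByExpr (minimum count 10), and limma 3.58.1 in R 4.3.3 was fitted to log2(value + 1) over the 3 groups, with Benjamini-Hochberg adjustment over 13651 genes. Checked on simulated data, it recovered 95% of genes changed by a log2 fold change of 2. The changed genes were drawn only from those with higher mean values, and 1 dispersion was set for all genes. Gli1, Gli2 and Ptch1 lay under that level, so the 95% does not cover them. Stk36 and Ift140, like Dhh and Scube2, passed the filter on low reads only through groups where they were high. Their adjusted p is therefore no independent support. Alternatives were edgeR 4.0.16, DESeq2 1.42.0, upper-quartile scaling, other pseudocounts and filters, terms for replicate number or label prefix, and each library left out.

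The genes, lists and tests were chosen with earlier results of these data known. Named were the 9 genes, every ligand, release gene and coreceptor, and per comparison up to 5 called genes of each other role in each direction. Wdr35 and Dync2h1 in CCl4-fib were named after their values were seen. Of the genes the rule selects, 1 is not reported here. Exon overlaps are from GENCODE M21. At the limit of 3 reads per position, high levels can be compressed, and no library was a copy of another of its group.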

Additional observations from a re-analysis of the deposited data

How the results depend on the processing

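Of the 12 differences called among the 9 genes in 3 comparisons, 9 were called in all alternatives, and of the 15 not called, 12 were called in none. Further, 0 of the 42 calls of other pathway genes changed direction. With the label prefix as a term, 1 in place of 2 of the 9 genes was called higher in NASH-fib against HSCs, 0 in place of 1 higher and 0 in place of 1 lower in NASH-fib against CCl4-fib, and of the other genes 7 in place of 14 were called higher and 0 in place of 3 lower in NASH-fib against HSCs, 11 in place of 17 higher in CCl4-fib against HSCs, and 0 in place of 1 higher between the fibroblasts. In NASH-fib against CCl4-fib, edgeR and DESeq2 each called 2 of the 9 genes higher, and of the other genes edgeR called 2 higher and DESeq2 6 higher and 3 lower. A pseudocount of 0.5 gave 0 higher, and one of 10 gave 2 higher and 2 lower. Fitted on the 2 groups alone, 9 other genes were called higher in NASH-fib against HSCs and 2 between the fibroblasts. DESeq2 called 10 in place of 6 other genes lower in CCl4-fib against HSCs. The cause of these changes was not tested.

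With each library left out, 9 to 14 other genes were called higher in NASH-fib against HSCs (9 without NASH-fib replicate 2 or 3). Between the fibroblasts, 0 to 1 of the 9 genes were called higher and 0 to 1 lower, and 0 to 2 other genes each way. In CCl4-fib against HSCs, 12 to 21 other genes were called higher and 4 to 9 lower.

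The deviations of samples with the same replicate number correlated at −0.473 to 0.514, and over 0.1 in 1 of 9 pairs (replicate 3 of NASH-fib and HSCs), so the numbers were not taken to pair the samples. With the replicate block, 10 in place of 14 other genes were called higher in NASH-fib against HSCs (Dync2li1, Ift140, Scube2 and Dync2h1 were lost), 16 in place of 17 higher and 5 in place of 6 lower in CCl4-fib against HSCs, and 0 in place of 1 higher between the fibroblasts, and the counts of the 9 genes did not change. Genes with under 10 reads per library, such as Gli1, Gli2 and Ptch1 in 1 group each, are limited by depth.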
